A study of Homo sapiens with 4 samples.

Results

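The ligands and receptors of the EGF receptor family were followed across a microarray experiment on A549 cells, a human lung adenocarcinoma line. The set was chosen by name and holds 9 genes, namely the ligands HBEGF, AREG, EREG, BTC and TGFA, the receptors EGFR, ERBB2 and ERBB3, and the ligand-releasing protease ADAM17. All probe sets that the annotation table assigns to these symbols were taken, which gave 31 probe sets for 8 of the 9 genes, out of 54613 probe sets and 19775 genes in all. AREG has no probe set under its name in that table and is not analysed here. The study asked which responses to nicotine depend on β-arrestin-1 (gene symbol ARRB1), a scaffold protein that binds activated G-protein-coupled receptors. The 4 arrays hold 1 sample each of cells given a non-targeting control siRNA and serum starved, control siRNA with nicotine, ARRB1 siRNA and serum starved, and ARRB1 siRNA with nicotine. By the labels, starvation lasted 36 h, nicotine was used at 1 µM for 24 h, and every array holds cells of the same line. Cells that received the ARRB1 siRNA are called knockdown cells here, the others control cells. The siRNAs act transiently and lower the transcript without removing the gene, and a vehicle for the serum starved cells is not named in the labels.

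No condition has a replicate, so no test between conditions was made and no p-value is given. Values are MAS5 signals, the brightness of a probe set on a linear scale after scaling of each array. Differences are given as log2 ratios of 2 arrays, where 1 is a doubling. As the only measure of error at hand, each difference is set beside the SD of the log2 differences of the 500 probe sets closest to it in mean signal, between the same 2 arrays. That SD holds real changes of other genes as well as noise and is not a replicate error. Each gene is represented by its brightest probe set. A gene or probe set is called expressed when its mean log2 signal reaches the median of all probe sets, equal to a signal of 66.3. This holds for all 8 genes and for 12521 genes in all. Signals of different probe sets depend on their probes, so levels are compared between arrays and never between genes.

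The siRNA was checked first on its own target. All but 1 of the 7 probe sets for ARRB1 were lower in knockdown cells in each pair, 6 when starved and 6 with nicotine. Of the 5 expressed ones, 4 were lower in each pair, and the exception, 221861_at, had ratios of 1.04 and 1.08. The median probe set kept 54.2% and 65.7% of its control signal. With nicotine that was the dim 228444_at, at 11.8 in control and 7.75 in knockdown cells, where the SD was 1.70. Median signals of the 4 arrays lay between 68.6 and 73.3. Of 6 epithelial markers, all were expressed, with KRT18 at 21550 to 32303 and KRT8 at 15600 to 19420. CDH1, the epithelial cadherin, was lower with knockdown, at 5218 and 4812 in control cells against 3201 and 2827. Of 6 analysed markers of blood, endothelial and stromal cells, 4 were below the expressed limit on average, PTPRC at 4.16 to 35.9 among them, and the exceptions were PECAM1 at 157 to 205 and DCN at 75.0 to 91.7. The 6 epithelial markers had medians of 0.05 and 0.16 with knockdown, and the part of CDH1 and the others in the results on the EGF receptor family was not tested.

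Members of the EGF receptor family are receptor tyrosine kinases that pair when a ligand binds and then signal through the Ras-ERK, PI3 kinase and STAT pathways. HBEGF, AREG, EREG, BTC and TGFA are made as membrane-anchored precursors, and proteases of the ADAM family, ADAM17 and ADAM10 among them, cut them free. ERBB2 has no known soluble ligand and acts as a partner for the other receptors, whereas ERBB3 binds neuregulins and has little kinase activity of its own. G-protein-coupled receptors can activate EGFR by prompting the release of HBEGF and related ligands, a route called transactivation in which Src and β-arrestins have been placed.

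On its brightest probe set HBEGF stood apart from the other members, with more than 2-fold higher signals in knockdown than in control cells with or without nicotine. Its other expressed probe set was also higher, by less than 2-fold. ERBB3 was lower in knockdown cells on its 3 expressed probe sets in both pairs of arrays. BTC was lower in each of the other 3 arrays than in serum starved control cells. No member differed 2-fold with nicotine in either siRNA background, and ADAM17 was nearly level throughout.

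The sequences just upstream of the ligand genes HBEGF, EREG and BTC are shown, chosen by the values of the brightest probe sets. On these HBEGF was the member past the 2-fold limit. EREG and BTC, which lie in 1 ligand cluster on chromosome 4, differed there in opposite directions with knockdown in serum starved cells. A dimmer EREG probe set shared the direction of BTC. In the RefSeq gene order this cluster runs EPGN, EREG, AREG and BTC. Each run gives the 250 bases before the annotated start, 5′ to 3′ on the strand of the gene, in build GRCh38.p14. The HBEGF run lies at chr5:140346604-140346853 on the minus strand, the EREG run at chr4:74364895-74365144 on the plus strand and the BTC run at chr4:74794524-74794773 on the minus strand. Capitals mark matches to the motifs described next.
HBEGF: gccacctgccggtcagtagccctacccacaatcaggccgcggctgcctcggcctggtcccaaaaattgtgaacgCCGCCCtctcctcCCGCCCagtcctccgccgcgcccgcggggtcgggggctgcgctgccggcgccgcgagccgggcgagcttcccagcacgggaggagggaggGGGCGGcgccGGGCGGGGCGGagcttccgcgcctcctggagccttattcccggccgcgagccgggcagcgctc
EREG: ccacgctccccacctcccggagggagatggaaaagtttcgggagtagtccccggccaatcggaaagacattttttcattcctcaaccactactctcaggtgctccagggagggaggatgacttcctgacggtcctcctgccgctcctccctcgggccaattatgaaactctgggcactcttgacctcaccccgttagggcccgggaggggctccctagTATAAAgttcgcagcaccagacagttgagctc
BTC: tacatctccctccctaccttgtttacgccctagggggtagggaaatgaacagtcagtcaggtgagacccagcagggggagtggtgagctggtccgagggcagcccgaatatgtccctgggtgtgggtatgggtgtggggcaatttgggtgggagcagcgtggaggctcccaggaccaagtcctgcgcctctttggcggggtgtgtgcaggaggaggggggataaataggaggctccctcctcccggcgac

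The letters of 4 motifs were searched on both strands. The GC box, to which factors of the Sp family bind, was read as GGGCGG. The box that helps position transcription, close upstream of many starts, was read as TATAAA. The site of AP-1, the Fos and Jun factor at the end of the ERK pathway, was read as TGANTCA, and the site of the E2F factors of the cell cycle as TTTNGCGC. The HBEGF window held 5 GC boxes, at 176, 163, 73, 63 and 58 bases before the start, of which the ones at 63 and 58 share 1 base. Of all 35116 promoter windows of this length, 42.6% hold at least 1 GC box. The EREG window held 1 TATA box, 32 bases before the start, a motif found in 10.7% of all windows. The BTC window held none of the 4. AP-1 letters occur in 6.57% of all windows and E2F letters in 1.51%, and none of the 3 windows shown had either. The share of G and C was 76.4% for HBEGF, 58% for EREG and 62% for BTC, against a median of 58% over all windows. Such matches describe the sequence, and no binding was measured. RefSeq windows were at hand for 8 of the 9 genes, and ERBB3 is the one not shown there.

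HBEGF encodes heparin-binding EGF-like growth factor, a ligand of EGFR and ERBB4. Its brightest probe set, 203821_at, had signals of 357 in starved control cells, 318 in control cells with nicotine, 794 in starved knockdown cells and 832 in knockdown cells with nicotine. Both knockdown arrays were thus above both control arrays, with a wide gap between the pairs and little distance within them. The log2 difference with knockdown was 1.15 in serum starved cells, a ratio of 2.22, where probe sets of like signal had an SD of 0.328. In nicotine treated cells it was 1.39, a ratio of 2.62, with an SD of 0.342. Among the 12521 expressed genes, 92 lay higher than HBEGF in the starved pair and 29 in the nicotine pair. These pairs share no array. The second expressed probe set, 38037_at, had 130 and 153 in control cells and 212 and 287 in knockdown cells, in the order serum starved and nicotine. It differed in the same direction by less, at 0.70 and 0.90, each past the SD of 0.437 for its signal but short of 2-fold. The remaining 2 HBEGF probe sets, 244857_at and 222076_at, were below the expressed limit, with signals of at most 33.9 and 10.3.

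**Figure D1:**
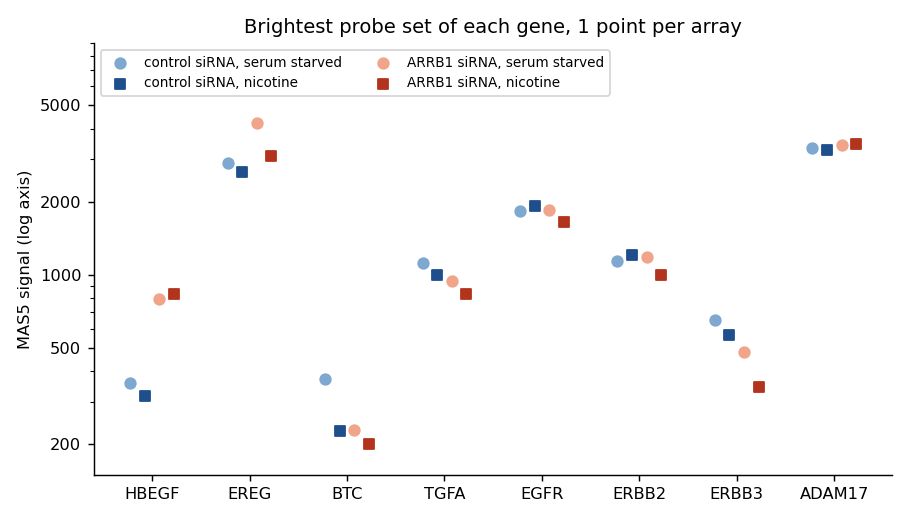
MAS5 signal (log axis) of the brightest probe set of each of 8 genes, with 1 point per array. HBEGF is at 794 and 832 in the knockdown arrays against 357 and 318 in the control arrays, while the 4 ADAM17 points lie between 3269.8 and 3459. Heights are not comparable between genes.

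In the starved pair 1 of the 8 members, HBEGF, was at least 2-fold higher with knockdown, as were 1.01% of the expressed genes, and none was 2-fold lower, against 0.783%. In the nicotine pair HBEGF was again the 1 member at least 2-fold higher, against 0.879% of expressed genes, and none was 2-fold lower, against 1.4%. HBEGF is 1 of 21 expressed genes, or 0.168%, that were at least 2-fold higher in both pairs, and none of the members is among the 0.327% that were 2-fold lower in both. With a limit of 1.5-fold, HBEGF stayed the 1 higher member in each pair, against 4.89% of genes in the starved pair and 3.72% in the nicotine pair. On the lower side 1 member passed 1.5-fold in each pair, BTC in serum starved cells against 3.87% of genes and ERBB3 with nicotine against 6.43%. The median of the 8 members was 0.03 in the starved pair, where all expressed genes had 0.02, and -0.20 in the nicotine pair, again against 0.02. Of the members, 5 were above 0 in the former, or 2 after centring every array on its median, and 3 in the latter under both scalings.

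EREG encodes epiregulin, a ligand of EGFR and ERBB4. On its brightest probe set, 205767_at, it had 2893 and 2644 in control cells, serum starved and with nicotine, and 4226 and 3098 in knockdown cells. The highest value was that of serum starved knockdown cells, and the knockdown arrays were both above the control ones. The difference with knockdown was 0.55 in serum starved cells (SD 0.254 at that signal) and 0.23 with nicotine (SD 0.310), so the latter was within the spread. A dimmer EREG probe set, 1569583_at, had 96.4 and 124 in control and 82.4 and 107 in knockdown cells. It pointed the other way with knockdown, at -0.23 and -0.21, both within SDs of 0.550 and 0.543, so the EREG probe sets disagree.

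BTC encodes betacellulin, which binds EGFR and ERBB4. Its brightest probe set, 241412_at, had 372 in serum starved control cells, 227 with nicotine, and 230.0 and 201 in knockdown cells, starved and with nicotine. The starved control array was the high one, and the other 3 lay close together. With knockdown the difference was -0.69 in serum starved cells (SD 0.402) and -0.18 with nicotine (SD 0.396). The siRNA and nicotine differences that rest on the starved control array share it, so they are not separate observations. The second BTC probe set, 207326_at, had 87.0, 82.3, 64.0 and 35.4 in the same order and lay below the expressed limit. Its lowest value was in nicotine treated knockdown cells, as for the brighter probe set.

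TGFA, transforming growth factor alpha, is a ligand of EGFR. On 205016_at it had 1119.5 and 999.7 in control cells and 944 and 834 in knockdown cells, serum starved first. Its order was thus the same as that of ERBB3, from starved control down to nicotine with knockdown. Each step was small, with differences of -0.25 and -0.26 for knockdown against SDs of 0.278 and 0.311. None of the 4 comparisons of TGFA exceeded the SD at its signal.

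ERBB3, the receptor for neuregulins, had 655 and 564 in control cells and 482 and 344 in knockdown cells on its brightest probe set, 226213_at. Both knockdown arrays were below both control arrays. The difference was -0.44 in serum starved cells (SD 0.313) and -0.71 with nicotine (SD 0.319), ratios of 0.735 and 0.609. A second probe set, 202454_s_at, had 363 and 337 in control and 247 and 224 in knockdown cells, differences of -0.56 and -0.59. The third, 1563253_s_at, had 90.9 and 136 against 55.2 and 55.4, differences of -0.72 and -1.30. All 3 expressed ERBB3 probe sets had both knockdown values below both control values, and every one of these 6 differences exceeded the SD at its signal. In the nicotine pair 494 of the expressed genes lay lower than the ERBB3 probe set 226213_at, so its place is less extreme than that of HBEGF.

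**Figure D2:**
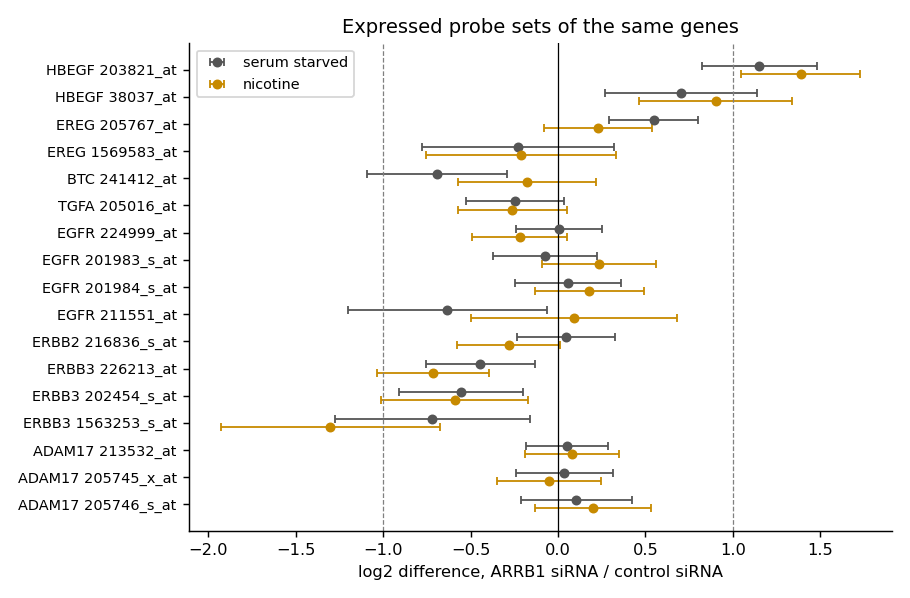
Log2 difference between ARRB1 siRNA and control siRNA (horizontal axis) for the 17 expressed probe sets of the 8 genes, in serum starved (grey) and nicotine treated (yellow) cells, with whiskers of 1 SD of probe sets of similar signal and dashed lines at 2-fold. Both HBEGF probe sets lie to the right, from 0.70 to 1.39, and the 3 of ERBB3 to the left, from -0.44 to -1.30. The -1.30 is that of 1563253_s_at, whose knockdown signals were below the expressed limit.

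EGFR, the receptor for most of these ligands, had 1835 and 1924 in control cells and 1844 and 1654 in knockdown cells on 224999_at. Its differences with knockdown were 0.01 and -0.22, both within the spread (SD 0.245 and 0.272). ERBB2, the shared partner receptor, had 1147 and 1211 against 1184 and 996 on 216836_s_at, with differences of 0.05 and -0.28. On these probe sets the lowest array of both receptors was knockdown with nicotine, by less than 1 SD of similar probe sets from control cells with nicotine. On the EGFR probe sets 201983_s_at and 201984_s_at that array was the highest, with differences to control cells with nicotine of 0.23 (SD 0.325) and 0.18 (SD 0.312). ADAM17, a protease that frees several of the ligands, had 3325 and 3269.8 in control and 3440.1 and 3459 in knockdown cells on 213532_at. Its 3 probe sets, all expressed, had differences of -0.05 to 0.20 with knockdown, each within the spread.

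Nicotine was then compared with serum starvation within each siRNA. In control cells 0 of the 8 members were 2-fold higher, against 0.719% of expressed genes, and 0 were 2-fold lower, against 0.335%. In knockdown cells the members at 2-fold again numbered 0 in either direction, against 0.495% of genes higher and 0.958% lower. With a limit of 1.5-fold BTC was lower in control cells, at -0.71 (SD 0.335), against 1.77% of genes that were lower and 2.93% that were higher. In knockdown cells no member passed 1.5-fold, against 2.16% of genes higher and 4.7% lower. BTC differed by -0.20 (SD 0.347) there.

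Of the 8 members, 6 were below 0 with nicotine in control cells and 6 in knockdown cells, with medians of -0.15 and -0.19. After that centring, EGFR and ERBB2 were also below 0 in control cells, at -0.03 and -0.02. Over all expressed genes the medians were -0.02 and -0.01, and 44.4% and 48.1% of genes were above 0. EREG was lower with nicotine by more than the SD in knockdown cells, at -0.45 (SD 0.231), and by less in control cells, at -0.13 (SD 0.137). Its dimmer probe set, 1569583_at, pointed the other way in both, at 0.38 (SD 0.507) and 0.37 (SD 0.461). ERBB3 differed by -0.22 (SD 0.258) in control and by -0.49 (SD 0.316) in knockdown cells. On 202454_s_at ERBB3 differed by -0.11 and -0.14, and on 1563253_s_at by 0.59 (SD 0.550) and 0.00, so its probe sets do not share a direction with nicotine. HBEGF was at -0.17 (SD 0.246) in control and 0.07 (SD 0.320) in knockdown cells on its brightest probe set, and at 0.23 (SD 0.351) and 0.43 (SD 0.405) on 38037_at. TGFA was at -0.16 and -0.18, both within the spread.

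**Figure D3:**
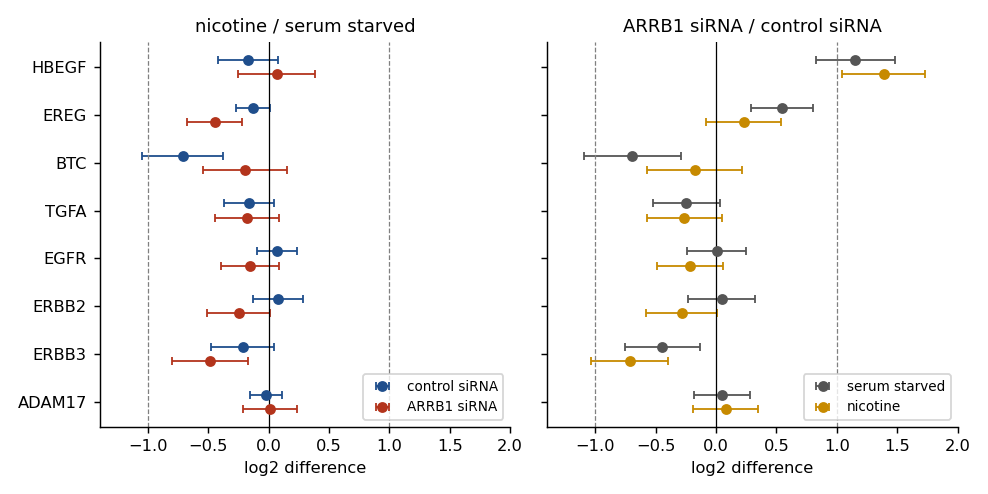
Log2 differences of the brightest probe set of each gene between nicotine and serum starved cells (left) and between ARRB1 siRNA and control cells (right), with whiskers of 1 SD of probe sets of similar signal and dashed lines at 2-fold. HBEGF with knockdown, at 1.15 and 1.39, is the only point pair past a dashed line, and the nicotine differences run from -0.71 (BTC, control siRNA) to 0.08.

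One EGFR probe set went its own way with nicotine. On 201983_s_at EGFR had 1142 in starved control cells and 1569 with nicotine, and 1084 and 1846 in knockdown cells. It was higher with nicotine in both backgrounds, at 0.46 (SD 0.201) and 0.77 (SD 0.266). The brightest EGFR probe set differed by 0.07 and -0.16, and another, 201984_s_at, by 0.01 and 0.13, with signals of 761, 765, 790.5 and 866. The remaining expressed one, 211551_at, differed by -0.73 and 0.00. The array thus gives no single answer for EGFR, and which transcript forms each probe set reads was not tested.

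Whether knockdown altered the nicotine difference was described by subtracting the log2 difference in control cells from that in knockdown cells. BTC had the largest value, 0.52, against an SD of 0.435 for probe sets of like signal. Its starved control array was the high one in both of the differences that use it. ERBB2 had -0.33 (SD 0.289) and EREG -0.32 (SD 0.249). With the median over all probe sets of the gene in place of the brightest, BTC was at -0.13 and ERBB2 at 0.16, so their direction depends on the probe sets taken. The other 5 members were between -0.27 and 0.24 and within their SDs, HBEGF at 0.24 (SD 0.332).

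The rest of the pathway was described by lists of genes with known roles. Of the other ligands, NRG1, a neuregulin that binds ERBB3 and ERBB4, had 3472 and 3242 in control cells and 1982 and 2362 in knockdown cells on 206343_s_at. Its differences with knockdown were -0.81 (SD 0.226) and -0.46 (SD 0.245), but a dimmer NRG1 probe set, 206237_s_at, differed by -0.12 and 0.26. Of 5 expressed NRG1 probe sets, 4 were lower and 1 was higher with knockdown in the starved pair. In the nicotine pair 4 were higher, and 206343_s_at was the 1 that was lower, so the NRG1 probe sets disagree. EGF itself was dim, at 67.3 to 92.5, and ERBB4, the family's remaining receptor, was below the expressed limit on its brightest probe set, at 12.5 to 27.3.

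Of 9 expressed sheddases and their partners, 1 was at least 2-fold higher with knockdown in serum starved cells, against 1.01% of all expressed genes. With nicotine none was, against 0.879%. The gene past the limit was TIMP3, a secreted inhibitor of metalloproteases that also blocks ADAM17. It had 66.5 and 95.5 in control and 223 and 144 in knockdown cells. Its differences were 1.75 (SD 0.500) and 0.59 (SD 0.519). They rest on 201148_s_at, the 1 expressed probe set of 4 for TIMP3, whose starved control signal was near the expressed limit of 66.3. The next brightest, 201149_s_at, was below that limit on average and differed by 0.17 (SD 0.689) and -0.45 (SD 0.769). ADAM19, another membrane protease, had 259 and 227 against 408 and 394, differences of 0.65 (SD 0.347) and 0.79 (SD 0.371). The ligand sheddase ADAM10 was close to level, at -0.02 (SD 0.205) when starved and 0.17 (SD 0.223) with nicotine.

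Of 14 expressed adaptors and effectors at the receptor, none passed 2-fold in either knockdown pair. Only 0.783% to 1.4% of all expressed genes did so per direction, so a count of 0 does not set this list apart. STAT3, a transcription factor activated by these receptors, was the 1 gene of this list at least 1.5-fold lower in each pair. Of all expressed genes, 3.87% were that much lower when starved and 6.43% with nicotine. STAT3 had 5005 and 4669 in control and 3089 and 3109 in knockdown cells on 208991_at. Its 3 expressed probe sets were lower with knockdown in both pairs, from -0.28 to -0.77. GRB2, the adaptor that links the receptors to Ras activation, differed by 0.03 and 0.10. GAB2, a docking protein, was lower with nicotine in control cells, at 342 against 583, a difference of -0.77 (SD 0.265). In knockdown cells its nicotine difference was 0.05 (SD 0.306).

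None of the 19 expressed negative regulators and trafficking genes passed 2-fold in these pairs, against 0.783% to 1.4% of all expressed genes per direction. CBL, the ubiquitin ligase that marks EGFR for degradation, had 787 and 758 in control and 1044 and 1095 in knockdown cells, differences of 0.41 (SD 0.313) and 0.53 (SD 0.337). ERRFI1, an inhibitor of the EGFR kinase, differed by -0.06 and 0.19. LRIG3, a membrane protein related to the EGFR inhibitor LRIG1, differed with knockdown by -0.16 (SD 0.406) in starved cells and by -0.69 (SD 0.451) in nicotine treated cells. EPN1, an endocytic adaptor, differed with knockdown by 0.46 (SD 0.396) and 0.76 (SD 0.460) in the same order. Between nicotine and starvation in control cells, SOCS4 was at 1421 against 2431, a difference of -0.77 (SD 0.174). TNK2 was at 165 against 103, a difference of 0.69 (SD 0.398). In knockdown cells the nicotine difference was -0.07 (SD 0.238) for SOCS4 and 0.35 (SD 0.456) for TNK2.

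Of 24 expressed ERK feedback and immediate early genes, the transcripts commonly read as output of the pathway, none passed 2-fold. In the knockdown pairs 0.783% to 1.4% of all expressed genes did so per direction. Above 0 with knockdown were 15 in serum starved cells and 21 with nicotine, where 52.4% and 52.2% of all expressed genes were above 0. The list medians were 0.26 and 0.12, against 0.02 over all genes in both pairs. IER2, an immediate early gene, had 2456 and 2901 in control and 4687 and 5332 in knockdown cells, differences of 0.93 (SD 0.247) and 0.88 (SD 0.288). DUSP6, the ERK phosphatase, differed by 0.56 (SD 0.231) and 0.07 (SD 0.283) on its brightest probe set. On 208891_at it differed by 0.21 (SD 0.253) and 0.25 (SD 0.281), and on 208893_s_at by 0.23 (SD 0.321) and 0.48 (SD 0.335). FOS, a subunit of AP-1, was at -0.40 (SD 0.412) and -0.72 (SD 0.447). IER3, another immediate early gene, had 6394 and 5863 in control and 7774 and 9626 in knockdown cells, differences of 0.28 (SD 0.213) and 0.72 (SD 0.228). With nicotine in control cells the median of this list was 0.03. None of its genes reached 1.5-fold, against 2.93% of all expressed genes higher and 1.77% lower. Among 9 expressed arrestins, receptor kinases and Src family genes, SRC had 4201 and 4534 in control and 4039 and 3378 in knockdown cells, and the list medians with knockdown were -0.19 and -0.42. On their brightest probe sets, the receptor kinases GRK3 and GRK6 were at -0.74 (SD 0.426) and -0.60 (SD 0.341) in the nicotine pair. These probe sets were within the spread in the starved pair. The 4 expressed GRK6 probe sets disagree in size, with 4 lower when starved and 3 with nicotine. On 202849_x_at the differences were -1.88 (SD 0.422) when starved and -1.67 (SD 0.461) with nicotine, and on 202848_s_at -0.18 and 0.12. YES1, a Src family kinase, was at -0.44 (SD 0.260) with nicotine and 0.05 (SD 0.244) when starved on its brightest probe set. Its other expressed probe set, 202932_at, was at -0.03 in both pairs. The list holds ARRB1 itself, the target of the siRNA.

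**Figure D4:**
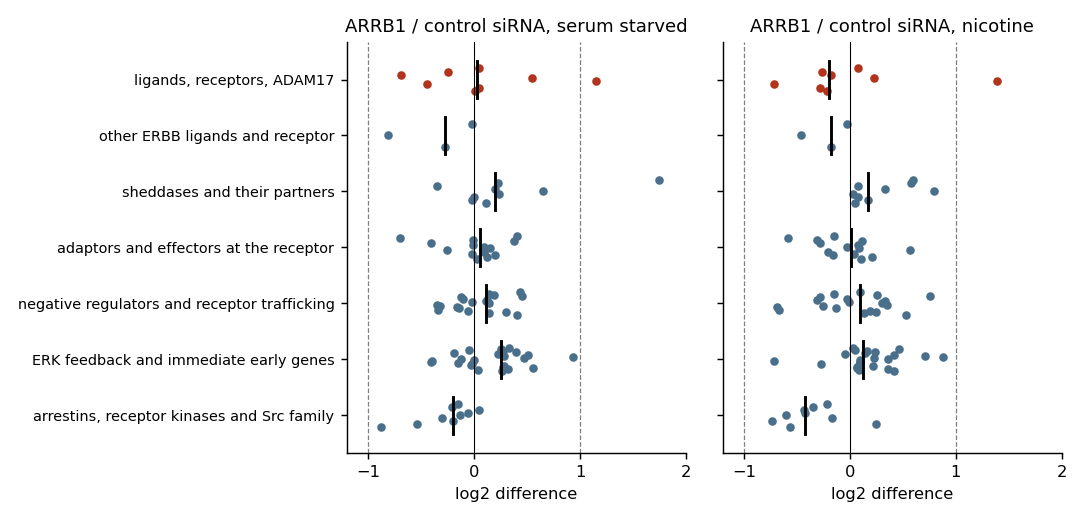
Log2 differences between ARRB1 siRNA and control siRNA of the 8 members (red) and of the expressed genes of 6 pathway lists (blue), 1 point per gene, in serum starved (left) and nicotine treated (right) cells, with black bars at list medians and dashed lines at 2-fold. HBEGF, at 1.15 and 1.39, and TIMP3, at 1.75 in serum starved cells on its 1 expressed probe set, are the points past 2-fold. The ERK feedback list has medians of 0.26 and 0.12.

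The genes whose profile over the 4 arrays was closest to that of HBEGF, the member with the widest range, were SPINK6, ANKRD22, BCHE, SBSN and PTX3. Closeness was the Euclidean distance between log2 signals centred on each gene's mean, from 0.122 for SPINK6 to 0.228 for PTX3, over 4 arrays only. SPINK6, a protease inhibitor, had 49.1, 47.4, 122.5 and 122.7 in the order of conditions given above. PTX3, a secreted pattern recognition protein, had 176, 192, 407 and 435. All 5 were higher in both knockdown arrays than in both control arrays, which the choice by likeness brings about.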

How the data were processed

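A549 RNA was hybridised to Affymetrix Human Genome U133 Plus 2.0 arrays. The deposited values are linear signal intensities that the authors made with MAS5 in GCOS 1.4, per the labels, with a trimmed mean of 500.1 on each array. The log2 step and gene centring in the methods are not in these values, and detection calls were not used. Array controls, 62 in number, were removed. Of the 54613 probe sets kept, 41091 had 1 symbol in the platform annotation, updated by gene ID to RefSeq, 1801 had several and 11721 had none. Log2 differences came from numpy 2.4.6 and pandas 2.3.3 under Python 3.11.15, without a floor or pseudocount, and figures with matplotlib 3.10.9. The SD at similar signal used 500 probe sets. The 2-fold limit is the submitters'. The steps were tested on simulated data.

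The members, gene lists and settings were chosen with earlier results of these data known. Named list genes were those past 2-fold or the 4 with the largest differences of each list, and not all of them are described. CBL, GRB2, ERRFI1, ADAM10, SRC, ERBB4, KRT8 and PTPRC were named for their roles after their values were seen. EPGN, CRK, RASA1, PTPRJ, ARRB2 and CD68 are not analysed here. Alternatives were centring of arrays, quantile normalization, 2 floors on the signal, the median over all probe sets per gene, no _x_at probe sets, and a 1.5-fold limit. The precision is limited by the number of arrays, 1 per condition.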

Additional observations from a re-analysis of the deposited data

Results flagged for a closer look

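The nicotine difference had opposite signs in control and knockdown cells for 4 members on their brightest probe sets, and the difference between the backgrounds was not tested, since each rests on 1 array per condition. The value in knockdown cells minus that in control cells was -0.22 for EGFR, -0.33 for ERBB2, 0.24 for HBEGF and 0.032 for ADAM17 on the log2 scale. On these probe sets each difference with nicotine was less than the SD of probe sets of similar signal. After centring every array on its median EGFR was at -0.03 in control and -0.09 in knockdown cells and ERBB2 at -0.02 and -0.18, so their signs no longer differed.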

How the results depend on the processing

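The HBEGF difference with knockdown stayed past 2-fold under centring, quantile normalization and the median over all probe sets. It lay between 1.08 and 1.70 in starved cells and between 1.15 and 1.48 with nicotine. The floors and the removal of _x_at probe sets could not move it. The 1.70 and the 1.15 came from the median over all 4 HBEGF probe sets, 2 of them dim. No alternative took the second expressed HBEGF probe set alone. That probe set was short of 2-fold, at 0.70 in starved cells and 0.90 with nicotine. A limit of 1.5-fold in place of 2-fold moved the count of lower members from 0 to 1 for nicotine in the control background and for the knockdown in each pair, and no other alternative moved a count of members. Of 192 recomputed differences of single members, 177 moved by less than the SD at their signal and 15 by more, and 16 had the other sign. The 177 include every value from the floors and from the removal of _x_at probe sets. Those settings could move no member, since no brightest probe set was below a floor or of that type. All 15 that moved by more than the SD came from the median over all probe sets per gene, which takes in dim ones. Under that median, the nicotine difference in knockdown minus control cells was 0.32 for EGFR, 0.16 for ERBB2, -0.49 for HBEGF and -0.13 for BTC, each with the opposite sign to the brightest probe set, so no direction is drawn from those 4 values. Centring each array on its median shifted the median of all expressed genes by -0.09 to 0.09, and quantile normalization by at most 0.01. No paired analysis was possible because the labels carry no replicate numbers and each condition has 1 array. A fit with siRNA and nicotine as additive terms was not made. The SDs at similar signal ran from 0.131 to 0.625 for expressed probe sets of the members and from 0.673 to 1.75 for the dim ones, so smaller differences could not be seen at low signal.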

Other observations

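Below the expressed limit lay 14 of the 31 probe sets of the members. Of these, 10 differed at least 2-fold in at least 1 of the 4 comparisons, against 2 of the 17 expressed ones. Dim probe sets of similar signal had SDs of 0.673 to 1.75, so differences of this size are common at low signal. The share over all dim probe sets was not counted, and the 10 are not read as a trait of these genes. The 2 expressed ones were 203821_at of HBEGF and 1563253_s_at of ERBB3. The dim TGFA probe set 205015_s_at had 49.1 in starved control cells and 5.65 in control cells with nicotine, a log2 difference of -3.12 (SD 1.08 at that signal), with 54.9 and 48.1 in knockdown cells. The bright TGFA probe set differed by -0.16 in the same comparison. For ERBB2, 234354_x_at had 63.2 in starved control cells and 9.53 to 19.4 in the other arrays, while the bright probe set had 996 to 1211.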
